A study of Mus musculus with 12 samples.

Results

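The S100 genes encode small calcium-binding proteins, and 10 of them were followed here across mammary tumours of 6 mouse strains: S100b, S100a1, S100a4, S100a6, S100a8, S100a9, S100a10, S100a11, S100a13 and S100a14. The members were chosen by name, as probes annotated with one of these symbols or with an accession that now carries it, and the choice drew on the measured ratios. Each member had 1 probe, and all 10 passed the filter on dim probes, out of 28919 genes on the array and 28349 that were tested. Because the ratios themselves guided the choice, the values of the members are given below as a description. Counts of members past the threshold used for all genes are printed, and nothing is read from them. Every tumour arose in a mouse with an activated neu (ErbB2) transgene, driven by the MMTV promoter, which is active in mammary epithelium. The parental strain is MMTV/neu NDL2-5, written NDL25 below, and 5 derived strains, NYPD, YB, YC, YD and YE, have altered forms of the same receptor. In published work on these alleles, which the labels do not repeat, the NYPD receptor lacks its main tyrosine phosphorylation sites and YB, YC, YD and YE each have 1 site restored. Female mice had borne tumours for 6 weeks, and the sources used here give no age for them. For every strain, RNA of 10 tumours was combined into 2 pools of 5 tumours. Each of the 12 pools was hybridised on 2 Agilent arrays with exchanged dyes against Universal Mouse Reference RNA, a commercial mixture from many mouse cell types. A value below is the log2 ratio of tumour over reference in 1 pool, so that 0 means the reference level and 1 means 2-fold above it. Ratios of different genes depend on how much of each gene the reference holds, and are not compared as levels.

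S100 proteins carry a pair of EF-hand calcium-binding loops, form dimers and expose a binding surface when calcium rises, with which they hold target proteins such as annexins, non-muscle myosin and p53. Several are also secreted and act on the receptors RAGE and TLR4. S100a8 and S100a9 are best known from neutrophils and monocytes, S100a4 from fibroblasts and invasive tumour cells, S100a14 from epithelium, and S100b from glial cells, melanocytes, fat and cartilage. Most S100 genes lie together in a cluster that also holds the fused S100 genes of the skin barrier. Of the members, 9 lie on chromosome 3 and S100b alone on chromosome 10. In the RefSeq gene order S100a8 and S100a9 are direct neighbours, as are S100a1 and S100a13, S100a13 and S100a14, and S100a10 and S100a11.

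The stretches around the annotated starts of 3 members are shown because S100a8 and S100a9 varied most between pools, while S100b separated the strains most clearly relative to its spread. They run from 120 bases before to 30 bases after the annotated start, 5′ to 3′, from RefSeq (GRCm38.p6), and capitals mark the TATA-box letters TATAAA. The S100a8 stretch is chr3:90668951-90669100 on the plus strand, that of S100a9 is chr3:90695692-90695841 on the minus strand, and that of S100b is chr10:76253716-76253865 on the plus strand.
S100a8: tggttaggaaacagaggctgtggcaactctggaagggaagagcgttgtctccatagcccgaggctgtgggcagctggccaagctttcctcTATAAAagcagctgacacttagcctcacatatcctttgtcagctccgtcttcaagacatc
S100a9: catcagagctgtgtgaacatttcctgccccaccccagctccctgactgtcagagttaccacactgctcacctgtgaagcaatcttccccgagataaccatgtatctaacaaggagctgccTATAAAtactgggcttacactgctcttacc
S100b: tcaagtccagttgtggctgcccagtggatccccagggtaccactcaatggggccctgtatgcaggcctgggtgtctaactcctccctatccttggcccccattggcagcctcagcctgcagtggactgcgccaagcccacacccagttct

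The letters TATAAA begin 30 bases before the annotated start in S100a8 and at the annotated start itself in S100a9, and the S100b stretch does not hold them. Promoter windows of 300 bases were on hand for 8 of the 10 members, all but S100a10 and S100a14. Among these, S100a4 was the only other member with TATAAA on its own strand, beginning 31 bases before its start. Over all 32851 windows of this length, 13.6% held TATAAA on either strand, and 2.73% held it on the gene's strand within 50 bases before the start. S100a1 and S100a13 are shown for another feature: their annotated starts lie head to head on opposite strands, with 104 bases between them at chr3:90514331-90514434, given here on the plus strand.
S100a1 to S100a13: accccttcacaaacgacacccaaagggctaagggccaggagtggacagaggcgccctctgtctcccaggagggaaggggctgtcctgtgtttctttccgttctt

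Every member was flagged well above background in both channels on 24 of 24 arrays. Median tumour-channel intensity ran from 364.8 to 763.5 over the 24 arrays, and 97.28% to 98.86% of all spots had the flag. Since nearly all spots had it, the flag does not show that a gene was expressed. A ratio near 0, in any gene named below, can also come from weak signal in both channels. The reference spot was saturated on 23 of 24 arrays for S100a4 and for S100a6, and on 1 for S100a10, so ratios of S100a4 and S100a6 are bounds: the true tumour level lies further below the reference than printed. Feature extraction fell on separate days, and a session below means such a day. Days of hybridisation or scanning were not used. NDL25, YB, YC pool 1 and the second array of YC pool 2 were extracted in the same session. YD, YE and the first array of YC pool 2 were extracted in another. NYPD had a session of its own, which means that for NYPD the strain cannot be told apart from the session. Tumours were pooled whole, and fewer cells of a type and less RNA per cell cannot be told apart in any value. Of the breast markers, luminal and milk genes had a median ratio of 1.43 to 2.80 over the pools. The tumour channel was set from this same list, so a median above 0 followed from that choice and is not a finding. NYPD pool 2 stood apart from every other pool in skin genes, and values that rest on it are given with that pool named.

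**Figure D1:**
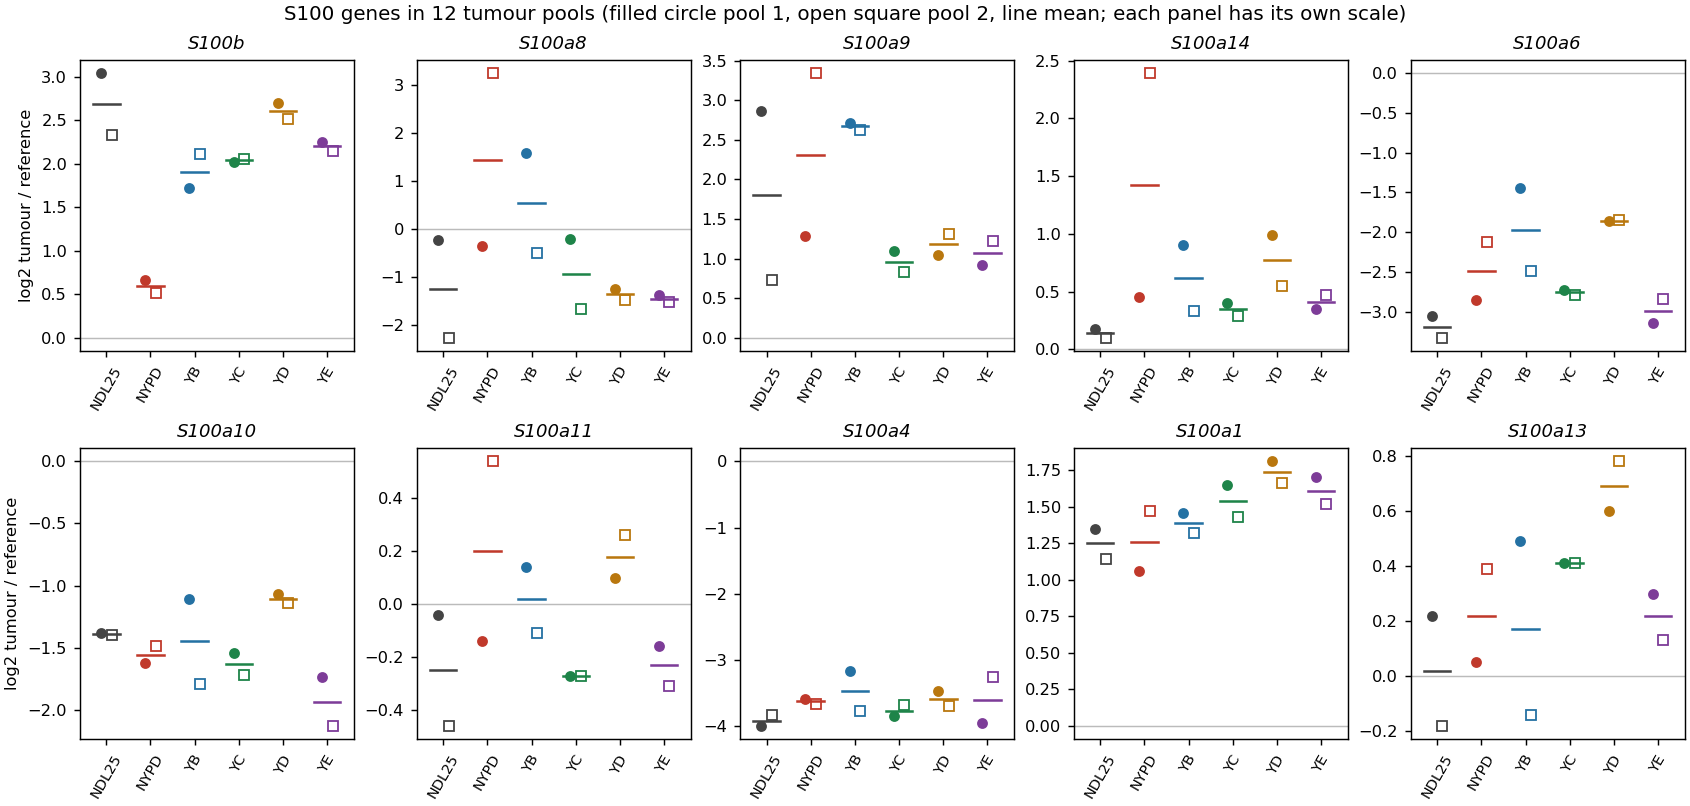
Log2 ratio of tumour over reference (vertical axis, own scale in each panel) for the 10 S100 genes in the 6 strains, with pool 1 as a filled circle, pool 2 as an open square and the mean of the 2 pools as a line. S100b sits at 0.66 and 0.52 in NYPD and at 1.72 or above elsewhere, whereas S100a8, S100a9 and S100a14 reach their highest value in NYPD pool 2.

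S100b, a homodimer that binds p53 and is a ligand of RAGE when secreted, was the member with the clearest order of strains. Its ratio was 3.04 and 2.33 in the NDL25 pools, 2.70 and 2.51 in YD, 2.25 and 2.15 in YE, 2.02 and 2.05 in YC, 1.72 and 2.11 in YB, and 0.66 and 0.52 in NYPD. Both NYPD pools lay below all 10 others, and every pool lay above the reference. Strain means ran from 2.69 ± 0.51 (SD, n = 2) in NDL25 through 2.61 ± 0.13 in YD, 2.20 ± 0.07 in YE, 2.04 ± 0.02 in YC and 1.91 ± 0.27 in YB to 0.59 ± 0.10 in NYPD. Neighbours in this order above NYPD were close: the pools of NDL25 and YD overlapped, as did those of YC and YB. The step from YE to YC, at 2.15 against 2.05 for the nearest pools, was smaller than the gap of 0.71 between the NDL25 pools.

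S100b was 4.27-fold lower in NYPD than in NDL25 (log2 -2.09 ± 0.22, moderated SE, n = 2 pools per strain). The 4 strains with a restored site lay above NYPD, by log2 1.32 in YB, 1.45 in YC, 1.61 in YE and 2.01 in YD, each ± 0.22. These 5 differences share the NYPD pools. The range of its strain means was 8.53 times its spread within strains, and 1.8% of all genes had a larger ratio. In the authors' deposited table the values of S100b were 3.74 and 3.04 in NDL25 against 1.30 and 1.12 in NYPD. Leaving out single pools or changing the processing kept the NYPD difference between -2.45 and -1.74 over 21 alternatives.

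Markers of the cells best known for S100b were checked beside it. Of 11 Schwann and glial genes, 0 passed limma between NYPD and NDL25, against 2 at an unadjusted p under 0.05, a rule that 15.7% of all genes passed. Their median was -0.01 and 0.04 in the NYPD pools and 0.03 in both NDL25 pools, and their summed ratio was 13 and 14.4 against 14.6 and 14.1. Foxd3, a regulator of the neural crest, stayed between -0.19 and 0.20 in all pools. Mbp, myelin basic protein, had 0.78 and 0.49 in NYPD and 1.21 and 0.97 in NDL25. Sox10, a glial regulator that mammary epithelium also expresses, had 1.51 and 2.11 in NYPD and 1.79 and 1.86 in NDL25. Melanocyte genes (5 measured) summed to 5.25 and 8.23 in NYPD and 6.15 and 5.36 in NDL25, where Tyr and Dct were at -0.18 to 0.09 in these 4 pools. Adipocyte genes (10) summed to 33.8 and 30.1 against 24 and 28.6, and cartilage genes (7) to 29.3 and 23 against 34.9 and 32.7. Of the adipocyte, cartilage and melanocyte genes, 0 passed limma between NYPD and NDL25, against 1, 0 and 0 at an unadjusted p under 0.05. Between YB and NYPD, 1 of 11 Schwann and glial genes (Ngfr) and 1 of 10 adipocyte genes (Plin1) passed, both higher in YB, beside 5.17%. Both genes were also called higher in YB than in NDL25, beside 3.92% of all genes. Of the 4 lists, none had a gene called between YE and NYPD, beside 1.87%. The F test called 1 adipocyte gene, Retn, beside 3.18% of all genes. Cartilage was the 1 list of the 4 whose sum lay lower in both NYPD pools than in both NDL25 pools. The lower sum was carried by Comp, Col9a1 and Sox9, whose means were 2.73, 3.55 and 1.90 in NYPD against 3.13, 4.01 and 2.46 in NDL25. Of the defining genes, Acan, aggrecan, was at 0.01 and 0.02 in NYPD and 0.14 and 0.05 in NDL25, and Col2a1, the collagen of cartilage, at 0.34 and -0.87 against -1.19 and -1.13. Among 14 luminal and milk genes, 4 passed limma between NYPD and NDL25, all higher in NYPD (Wap, Glycam1, Btn1a1 and Mfge8), beside 1.01% of all genes. Between YE and NYPD 3 of them passed, all lower in YE (Krt19, Wap and Glycam1), beside 1.87%, and between YB and NYPD 1 did, Glycam1, lower in YB, beside 5.17%. Their summed ratio was 126 and 145 in NYPD against 123 and 114 in NDL25. The part of these cells in the S100b values was not tested.

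S100a8 and S100a9 form calprotectin, a zinc- and manganese-binding heterodimer that neutrophils and monocytes carry in bulk and that stressed keratinocytes also make. S100a8 had the widest range of all members. Its ratio was -0.22 and -2.26 in NDL25, 1.59 and -0.50 in YB, -0.21 and -1.66 in YC, -1.24 and -1.47 in YD, -1.38 and -1.51 in YE, and -0.36 and 3.24 in NYPD. The 2 pools of a strain differed by 3.6 in NYPD, 2.09 in YB, 2.04 in NDL25 and 1.44 in YC, against 0.24 in YD and 0.14 in YE.

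The NYPD mean of S100a8 was 6.41-fold above the NDL25 mean (log2 2.68 ± 1.24 SE, n = 2 pools per strain), but the pools of both strains overlapped. NYPD pool 1, at -0.36, lay below NDL25 pool 1, at -0.22, so the difference of means rests on NYPD pool 2 and NDL25 pool 2. In YD and YE all 4 pools lay between -1.51 and -1.24, close together and below the reference.

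S100a9 read 2.87 and 0.73 in NDL25, 2.71 and 2.63 in YB, 1.09 and 0.83 in YC, 1.04 and 1.31 in YD, 0.92 and 1.22 in YE, and 1.28 and 3.34 in NYPD. It was above the reference in all 12 pools, and 4 pools stood at 2.63 or above: NDL25 pool 1, both YB pools and NYPD pool 2. The other 8 lay between 0.73 and 1.31. YB differed from NDL25 by log2 0.86 ± 0.77 (SE, n = 2 pools per strain) with overlapping pools, and both YB pools lay above all 6 pools of YC, YD and YE. Across the 12 pools S100a8 and S100a9 correlated at r = 0.82 and rho = 0.76, and at r = 0.64 without the 2 pools farthest from the median of S100a8. The pools share a reference and their strains, so this is a description. The genes parted in YB pool 2, where S100a9 was at 2.63 and S100a8 at -0.50.

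Neutrophil and macrophage genes were set beside the pair. Of 21 neutrophil genes measured, the median stayed between -0.02 and 0.20 in all pools, and the granule genes Ngp, Elane, Camp and Mpo lay between -0.14 and 0.35. The summed ratio was 45.9 in NYPD pool 2, 38.4 and 38.1 in the YB pools, and 25.3 to 30.7 in the other 9. In NYPD pool 2 the list included Stfa3, a cysteine protease inhibitor, at 2.96 against 0.01 to 0.38 elsewhere, while Cxcr2, the neutrophil chemokine receptor, was at -0.16. Between YB and NDL25, 3 neutrophil genes passed limma, all higher, beside 3.92% of all genes: Trem1, Hp and Ltf, lactoferrin, which mammary epithelium also makes. Ltf was also called higher in NYPD than in NDL25 (1 of 21, beside 1.01%), and Trem1 higher in YB than in NYPD (1 of 21, beside 5.17%). The F test called 3 of the 21, Csf3r, Trem1 and Ltf, beside 3.18% of all genes. The 14 macrophage genes had a median of 0.72 to 2.15 and were highest in YB pool 1, where 10 of the 14 peaked and S100a8 was at 1.59. Lyz2 and Msr1 were called lower in YE than in NYPD (2 of 14, beside 1.87% of all genes). Lyz2 was also the 1 macrophage gene that the F test called. NDL25 pool 1, where S100a9 was 2.14 above pool 2, summed to 25.3 for neutrophil and 42.2 for macrophage genes, against 26.3 and 42.2 in pool 2. The part of these cells in the S100a8 and S100a9 values was not tested.

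S100a14, an epithelial member that lies beside S100a13 in the cluster, had 0.18 and 0.10 in NDL25, 0.90 and 0.33 in YB, 0.40 and 0.29 in YC, 0.99 and 0.55 in YD, 0.35 and 0.47 in YE, and 0.45 and 2.39 in NYPD. The NDL25 pools were the lowest 2 of the 12, and NYPD pool 2 was 1.94 above NYPD pool 1. NYPD minus NDL25 was log2 1.28 ± 0.53 (SE, n = 2 pools per strain) on the means, with NYPD pool 1 at 0.45 within the range of the other altered strains. YD differed from NDL25 by 0.64 ± 0.53. The difference of NYPD from NDL25 was 2.25 without NYPD pool 1 and 0.32 without NYPD pool 2.

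NYPD pool 2 also stood out in S100 genes outside the 10. S100a7a, the mouse relative of psoriasin, was at 2.03 there and between -1.13 and -0.79 in the other 11 pools. S100a3, a protein of the hair cuticle named here after its values were seen, was at 1.87 against -0.18 to -0.02. S100g, the vitamin D-dependent calbindin, peaked instead in YB pool 1, at 1.18 against -0.41 to 0.30. S100a16 lay at 1.45 to 2.35 in YC, YD and YE and at 0.98 to 1.41 in the other strains (limma F test adjusted p = 0.159). S100a5 stayed between -0.45 and -0.05, and S100a7l2 between -0.15 and 0.05. Of these 6 measured S100 genes, 0 passed limma in the F test or in any of the 9 contrasts, against 1 in the F test and 0 to 2 per contrast at an unadjusted p under 0.05. By that unadjusted rule 21.3% of all genes passed in the F test and 7.58% to 20.1% per contrast.

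The fused S100 genes, whose proteins join an S100 domain to long repeats of the cornified skin layer, followed NYPD pool 2 as well. Rptn, repetin, was at 2.86 there and between 0.01 and 0.33 in the other 11 pools. Hrnr, hornerin, was at 2.5 against -0.03 to 0.53, with 1.65 on another probe, and Tchhl1 was at 1.89 against -0.06 to 0.18, although its probe was well above background on 12 of 24 arrays only. Flg, filaggrin, was at 0.25 on the brighter of its probes and at 1.33 on the dimmer. Each of these 4 genes had its highest value in NYPD pool 2, while NYPD pool 1 lay at 0.05 to 0.10. None passed limma in the F test or any contrast, also at an unadjusted p under 0.05, where the count was again 0, beside 7.58% to 21.3% of all genes. Leaving out NYPD pool 1 rests the NYPD values on pool 2 alone, with no spread within NYPD. Calls of these genes in that setting are not read as a result.

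**Figure D2:**
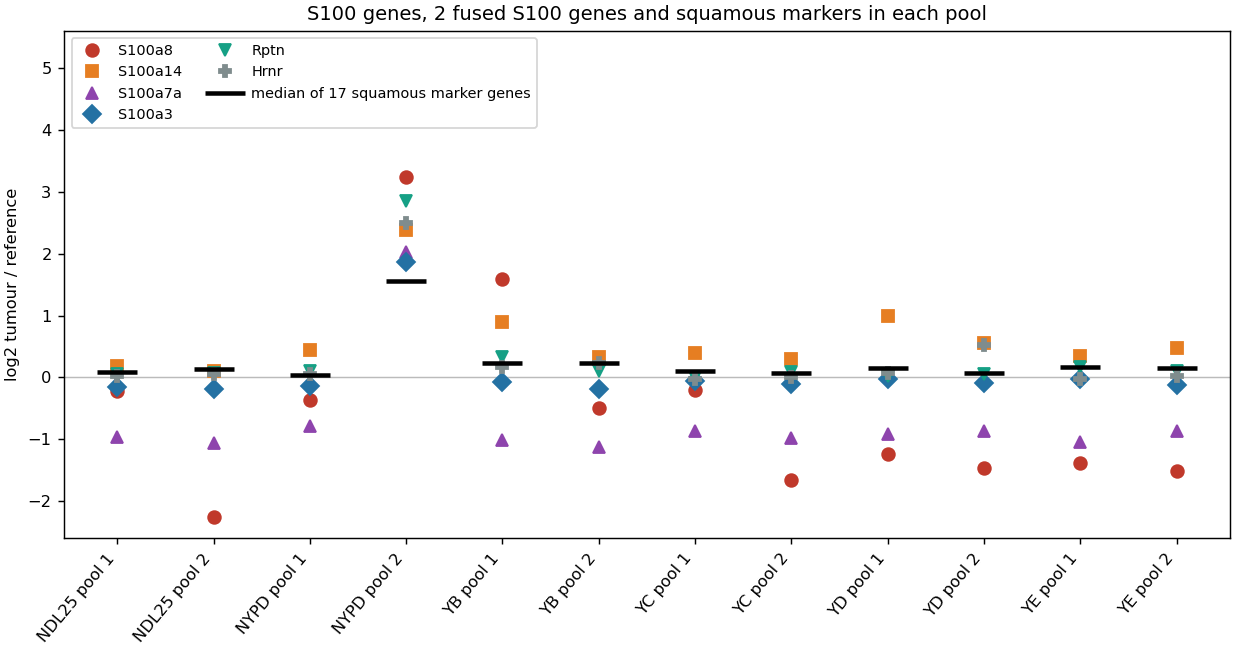
Log2 ratio of tumour over reference (vertical axis) in each of the 12 pools (horizontal axis) for S100a8, S100a14, S100a7a, S100a3, Rptn and Hrnr, with a bar at the median of 17 squamous marker genes. In NYPD pool 2 all 6 genes lie between 1.87 and 3.24 and the squamous median is 1.56, while NYPD pool 1 looks like the other pools.

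Squamous keratinocyte markers moved with these values. Of 17 measured, the median was 1.56 in NYPD pool 2 and 0.04 to 0.24 in the other 11 pools, and the summed ratio was 44.7 against 17.9 to 30.8. NYPD pool 2 was the highest pool for 11 of the 17. By limma, 1 of the 17 rose between NDL25 and NYPD (1.01% of all genes), Calml3, and 4 rose between NDL25 and YB (3.92%): Lor, Sprr2a1, Tgm3 and Calml3. Between YB and NYPD, 3 of the 17 were called, all higher in YB, beside 5.17%: Lor, Sprr2a1 and Tgm3. The mean of Tgm3 was 2.62 in YB and 0.35 in NYPD, and that of Sprr2a1 1.90 and 0.52. In NYPD pool 2, Krt6a, a keratin of stressed epidermis, was at 1.93 and Sprr1b, a cornified envelope precursor, at 1.68. The late markers Lor and Krt1 were at 0.18 and 0.17 there. The part of these cells in the S100a8, S100a9, S100a11 and S100a14 values was not tested. NYPD pool 2 was the highest pool for these 4 members, a position it held for 10.2% of all genes tested. Without NYPD pool 2, the highest values of S100a8 and S100a14 were 1.59 and 0.99.

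S100a6, S100a10 and S100a11 are the annexin-binding members. S100a6, calcyclin, had -3.05 and -3.33 in NDL25, -1.45 and -2.49 in YB, -2.73 and -2.79 in YC, -1.86 and -1.85 in YD, -3.15 and -2.84 in YE, and -2.85 and -2.13 in NYPD. All pools lay below the reference, by at least 2.73-fold in YB pool 1, the nearest. The printed pools of YD and YB lay above those of NDL25. Since each ratio is a bound, the differences between printed means, log2 1.33 for YD minus NDL25 and 1.22 for YB minus NDL25 (n = 2 pools per strain), are differences of bounds and not measured folds, as are those that follow. The YD pools were nearly equal, while the YB pools were 1.04 apart, and the difference of YB from NDL25 was 1.74 without YB pool 2 and 0.70 without YB pool 1. YD and NDL25 were extracted in different sessions, and with session as a block their difference was 1.39. That block was estimated from YC alone, as YC pool 1 against YC pool 2, the latter placed by its first array. It is therefore a weak adjustment. Within the session that held YD and YE, YD lay 1.13 above YE.

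S100a10, or p11, the partner of annexin A2 at the cell surface, does not need calcium to bind. It read -1.38 and -1.40 in NDL25, -1.11 and -1.79 in YB, -1.54 and -1.72 in YC, -1.07 and -1.14 in YD, -1.74 and -2.13 in YE, and -1.62 and -1.49 in NYPD. YD was highest and YE lowest by strain mean, at -1.11 ± 0.05 and -1.94 ± 0.28 (SD, n = 2). The pools of YD and YE, extracted in the same session, did not overlap.

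S100a11, calgizzarin, which binds annexin A1, stayed near the reference. It read -0.04 and -0.46 in NDL25, 0.14 and -0.11 in YB, -0.27 in both YC pools, 0.10 and 0.26 in YD, -0.16 and -0.31 in YE, and -0.14 and 0.54 in NYPD. The YD pools lay above both NDL25 pools, and the NYPD pools were 0.68 apart, with the higher one the same pool 2 as for S100a8 and S100a14.

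S100a4, a binder of non-muscle myosin that promotes tumour cell movement, lay below the reference in every pool. Its ratio was -3.99 and -3.83 in NDL25, -3.17 and -3.76 in YB, -3.84 and -3.68 in YC, -3.47 and -3.69 in YD, -3.94 and -3.26 in YE, and -3.58 and -3.66 in NYPD. The tumours held at least 9.02-fold less than the reference in every pool, YB pool 1 being the nearest, and a saturated reference compresses such ratios. Strain means ranged over 0.45, and the largest gap between 2 pools of a strain was 0.68, in YE. The median of 14 fibroblast genes was -2.07 to -0.49 over the pools, while single genes of the list, such as Postn, Lum and Fap, lay above the reference in every pool. Of the 14, 0 passed limma in any contrast, against 0 to 11 per contrast at an unadjusted p under 0.05. The unadjusted rule passed 7.58% to 20.1% of all genes per contrast.

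S100a1, best known from heart and skeletal muscle, where it acts on the ryanodine receptor and the calcium pump SERCA, was above the reference in every pool. It read 1.35 and 1.14 in NDL25, 1.46 and 1.32 in YB, 1.65 and 1.43 in YC, 1.81 and 1.66 in YD, 1.70 and 1.52 in YE, and 1.06 and 1.47 in NYPD. Strain means spanned 0.49, from 1.25 in NDL25 to 1.74 in YD, and the pools of YD, YE and YC lay above those of NDL25. S100a13, which helps the leaderless proteins FGF1 and interleukin 1 alpha leave the cell, read 0.22 and -0.18 in NDL25, 0.49 and -0.14 in YB, 0.41 in both YC pools, 0.60 and 0.78 in YD, 0.30 and 0.13 in YE, and 0.05 and 0.39 in NYPD. YD was again the highest strain, at 0.69 ± 0.13 against 0.02 ± 0.28 in NDL25 (SD, n = 2). The 2 genes whose starts face each other across the stretch shown above correlated at r = 0.75 and rho = 0.70 over the 12 pools, and at r = 0.73 without the 2 pools farthest from the median of S100a1.

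**Figure D3:**
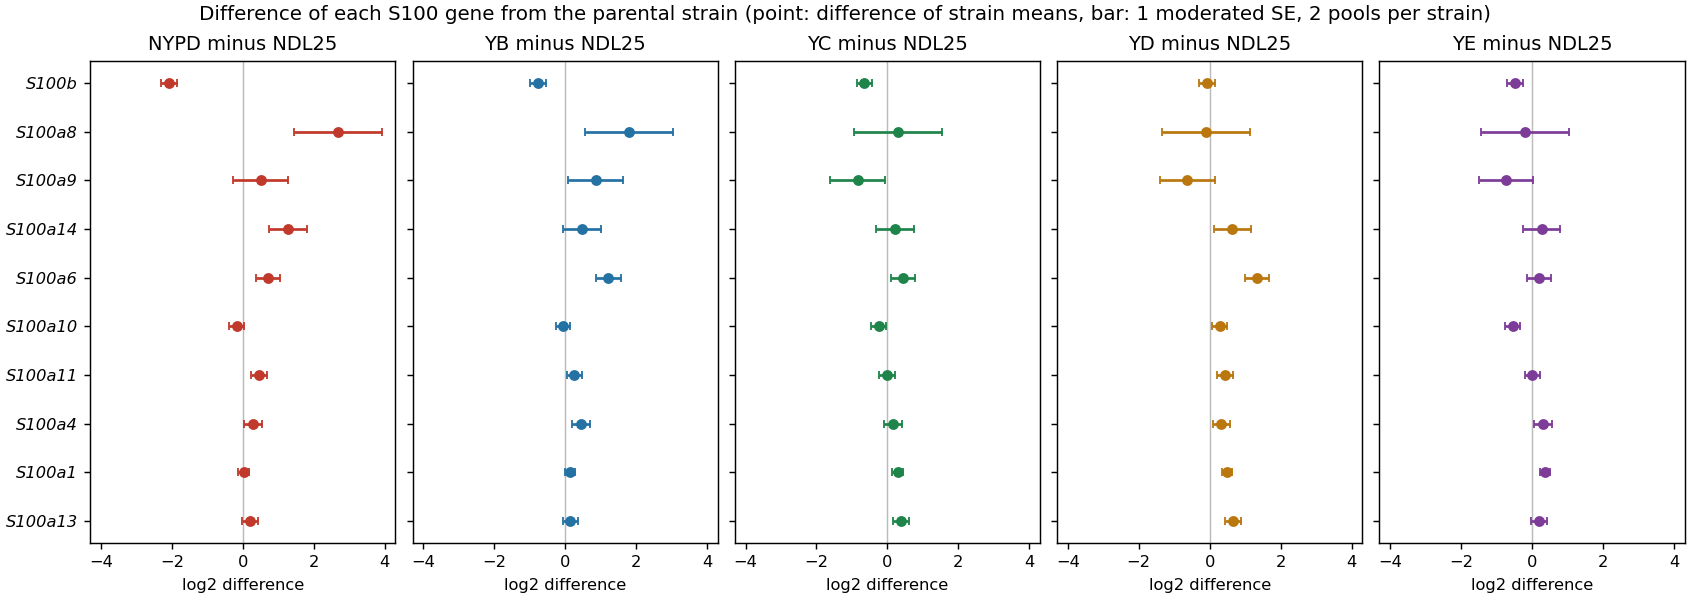
Difference in mean log2 ratio between each altered strain and NDL25 (horizontal axis, log2 units) for the 10 S100 genes (vertical axis), with 1 moderated standard error as the bar and 2 pools per strain. S100b in NYPD lies at -2.09, S100a6 at 1.22 in YB and 1.33 in YD as differences of bounds, and the bars of S100a8 span 1.24 on either side.

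By count, few members passed the threshold that was applied to all genes (adjusted p under 0.05 in either direction), and since the members were chosen with these ratios in view nothing is read from the counts. The F test over the 6 strains called 1 of 10 members, S100b, beside 3.18% of all genes. S100b was also the 1 member called between NYPD and NDL25 (1.01% of all genes), between YB and NYPD (5.17%) and between YE and NYPD (1.87%). No member was called between NDL25 and YB (3.92% of all genes), YC (0.00705%), YD (0.00705%) or YE (0%), or between NYPD and YC (0.0176%) or YD (0.0317%). At an unadjusted p under 0.05 limma counted 2 members in YB against NDL25 (17.3% of all genes), 1 in YC (11.4%), 3 in YD (10.4%) and 2 in YE (7.58%), and 1 in YC (10.3%) and 2 in YD (10.8%) against NYPD. The same rule passed 21.3% of all genes in the F test, 15.7% for NYPD against NDL25, 20.1% for YB against NYPD and 19.4% for YE against NYPD. The S100b call between NYPD and NDL25 was lost without NDL25 pool 1 and when just the 2 strains were fitted. Its F test call was lost without NYPD pool 2, YE pool 2, or any single pool of YC or YD, its YB minus NYPD call without YB pool 2 or either NYPD pool, and its YE minus NYPD call without NYPD pool 2 or either YE pool. In YD both pools lay above both NDL25 pools for 7 members, all but S100b, S100a8 and S100a9, beside 22.4% of all genes. Both NYPD pools lay below the other 10 pools for 1 member, S100b, beside 4.83% of all genes.

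Since the members were chosen with these ratios in view, nothing is read from how their spread compares with that of all genes. Their median spread within strains was 0.26 (SD) against 0.11 for all genes, and the median range of their strain means was 1.06 against 0.29. The ratio of the 2 quantities was 2.41 for the members and 2.47 for all genes. NDL25 pool 2 was the lowest of the 12 pools for 6 members, and the median member ratio there was -0.32, against 0.69 in YB pool 1 and 0.53 in NYPD pool 2. Of the 45 pairs of members, 36 correlated above 0 over the 12 pools, with a median r of 0.23 and a range of -0.63 to 0.82. S100a8 and S100a14 correlated at r = 0.81, at 0.43 without NYPD pool 2, and at 0.04 without the 2 pools farthest from the median of S100a8. S100a6 and S100a14 correlated at r = 0.56, at 0.87 without NYPD pool 2, and at 0.71 without the 2 pools farthest from the median of S100a6.

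Genes for proteins that bind S100 proteins were taken from a list of 28, all measured. Anxa1, the annexin bound by S100a11, was lowest in NDL25, at -2.26 and -2.16, and highest in YB, at 0.02 and -0.43. It read -1.31 and -1.22 in YC, -0.53 and -0.56 in YD, -1.23 and -1.65 in YE, and -1.27 and -0.92 in NYPD, so both NDL25 pools lay below all others. Anxa1 rose 4.01-fold in YB against NDL25 (log2 2.01 ± 0.19 SE, limma adjusted p = 0.003, n = 2 pools per strain) and 2.16-fold in NYPD (1.11 ± 0.19, limma adjusted p = 0.0458). The NYPD call was lost in 11 alternative settings, namely median centring, the 2 strains alone, and without NYPD pool 2 or any single pool of NDL25, YC, YD or YE, with log2 values of 0.94 to 1.16. All pools of YB and NDL25 fell in the same session, so a session block could not change their difference of 2.01. It changed the estimate of spread alone (limma adjusted p = 0.0102).

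Between YB and NDL25, 4 of the 28 partner genes rose and 0 fell, beside 3.92% of all genes in either direction: Anxa1, Anxa5, Trpv6 and Plat. Between NYPD and NDL25 Anxa1 was the 1 partner gene called, beside 1.01%. Trpv6, a calcium channel that S100a10 and annexin A2 bring to the membrane, rose by log2 0.69 ± 0.06 (limma adjusted p = 0.00187), from 0.08 and 0.02 to 0.80 and 0.69. Anxa5 rose by 0.68 ± 0.14 (limma adjusted p = 0.0393). That call was lost with session as a block, which could not change the difference itself. It was also lost without any single pool other than YB pool 2. Plat, tissue plasminogen activator, rose by 0.74 ± 0.09 (limma adjusted p = 0.00619) on its brightest probe, and its other probes gave 0.11 and 0.47. Against NYPD, where 5.17% of all genes were called, YB again had 3 partner genes higher and 0 lower, Anxa1 (log2 0.89 ± 0.19, limma adjusted p = 0.0365), Trpv6 (0.45 ± 0.06, 0.0101) and Plat (0.49 ± 0.09, 0.0212, with -0.19 and 0.06 on the other probes). Against NYPD, Anxa1 no longer passed without YB pool 1 or any single pool of NDL25, YC, YD or NYPD, and Plat without any single pool of YB or NYPD.

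YE against NYPD had 3 partner genes that fell and 0 that rose, beside 1.87% of all genes. Ppfibp1, a liprin bound by S100a4, fell by 0.99 ± 0.18 on the log2 scale (limma adjusted p = 0.0421, with -0.94 and -0.14 on its other probes), from -0.74 and -0.91 in NYPD to -1.76 and -1.87 in YE. Iqgap1, a scaffold bound by S100b, fell by 0.63 ± 0.12 (limma adjusted p = 0.0421), with -0.41 on another probe. Atp2a2, the calcium pump that S100a1 acts on, fell by 1.12 ± 0.18 (limma adjusted p = 0.035), with -0.31, 0.01 and -0.65 on the others of its probes. Without any single pool of NDL25, YD, YE or NYPD all 3 missed the threshold. The F test called 4 partner genes, Anxa1, Trpv6, Atp2a2 and Plat, beside 3.18% of all genes. In the other 5 contrasts limma called 0, against 4 to 8 at an unadjusted p under 0.05, beside 7.58% to 11.4% of all genes. The median log2 difference of the 28 ran from -0.17 to 0.09 over the 9 contrasts, against -0.01 to 0.01 for all genes.

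**Figure D4:**
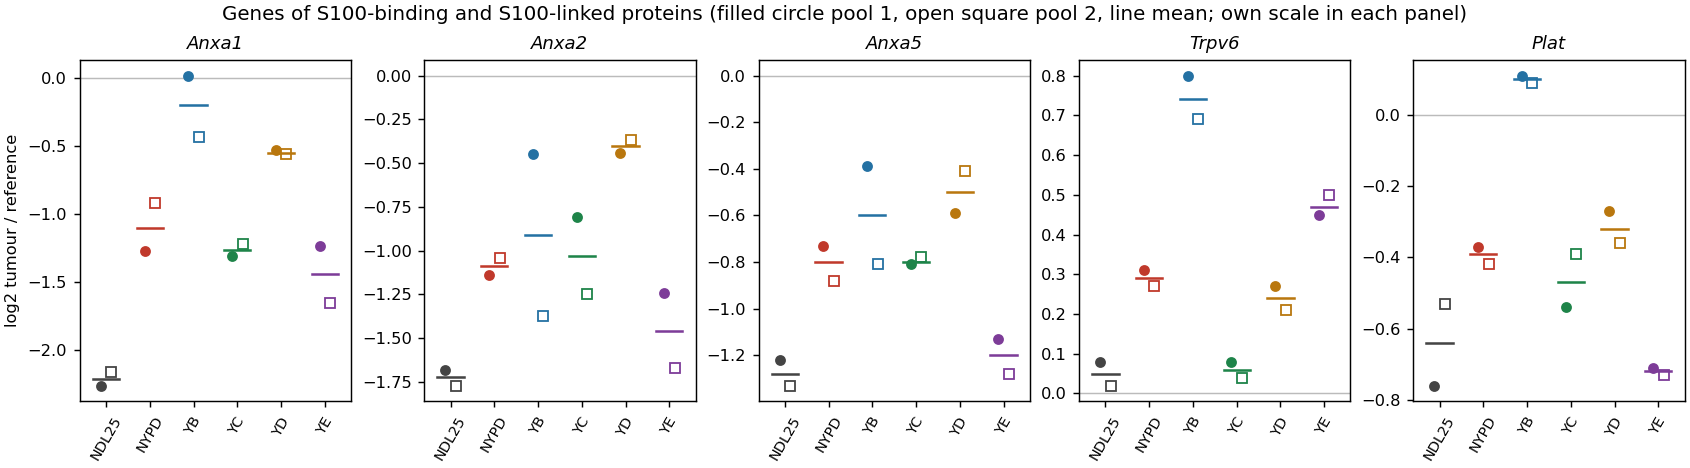
Log2 ratio of tumour over reference (vertical axis, own scale in each panel) for Anxa1, Anxa2, Anxa5, Trpv6 and Plat in the 6 strains, with pool 1 as a filled circle, pool 2 as an open square and the mean as a line. Anxa1 is at -2.26 and -2.16 in NDL25 and at 0.02 and -0.43 in YB, and the Anxa2 pools of YD lie at -0.44 and -0.37.

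Anxa2, the partner of S100a10 and S100a6, was described beside them. It read -1.68 and -1.77 in NDL25, -0.45 and -1.37 in YB, -0.81 and -1.25 in YC, -0.44 and -0.37 in YD, -1.24 and -1.67 in YE, and -1.14 and -1.04 in NYPD. YD minus NDL25 was 1.32, with 1.83 on another probe, and did not pass limma. Over the 12 pools Anxa2 correlated with S100a6 at r = 0.85 and rho = 0.80 and with S100a10 at r = 0.67 and rho = 0.52. S100a11 and Anxa1 correlated at r = 0.56 and rho = 0.64, S100a6 and its binder Cacybp at r = -0.02, and S100a4 and the myosin gene Myh9 at r = 0.13.

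Of 8 genes for S100 receptors, 0 passed limma in the F test or in any contrast, against 5 in the F test and 1 to 5 per contrast at an unadjusted p under 0.05. Over all genes that unadjusted rule passed 21.3% in the F test and 7.58% to 20.1% per contrast. Ager, which encodes RAGE, lay between -0.27 and 0.04, and Tlr4, the receptor of secreted S100A8, between -1.76 and -0.26. Alcam, an adhesion molecule, was highest in NYPD, at -0.35 and -0.28 against -1.68 to -0.63 elsewhere (limma F test adjusted p = 0.114). Mcam, a melanoma cell adhesion molecule, ran from 0.76 to 2.04 (adjusted p = 0.121), and from -0.06 to 1.19 on another probe, Nptn, neuroplastin, from -1.08 to -0.37 (0.158), and Cd36, a scavenger receptor, from -1.61 to 2.49 (0.154).

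For the 3 members with the widest range of strain means, the genes with the most similar pattern over the 12 pools were sought among 3370 genes with an ordinary symbol whose pools spanned at least a log2 of 1. S100a8 was nearest to Atp6v0d2, a subunit of the vacuolar proton pump (r = 0.96), Cd68, a lysosomal glycoprotein of macrophages (0.94), and Krt6a (0.93). Without NYPD pool 2 these values were 0.91, 0.90 and 0.84. S100b was nearest to Ccdc28a (r = 0.94), Gatd3a (0.87) and Bnipl (0.87). Ccdc28a read 0.02 and -0.42 in NYPD and 0.47 to 1.09 elsewhere, with other probes at 0.10 and 0.00 and at 0.04 and 0.05 in the NYPD pools. Another Gatd3a probe read -0.12 and 0.52 in NYPD and -0.37 to 1.52 elsewhere. S100a9 was nearest to Cwh43 (r = 0.94), Tpcn1, an endolysosomal cation channel (0.87), and Tent5b (0.86). The other Tpcn1 probes ran from 0.12 to 1.22 and from -0.10 to 0.16. These correlations were picked as the highest of many and are descriptions of 12 pools.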

How the data were processed

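Per the file headers, each scanner file gives a mean intensity and a median background intensity per spot and channel. A table that the authors deposited holds a ratio per dye-swap pair and probe, read here as log2, an assumption. Per the submitters' processing notes, RMA, limma and R 2.3.0 were used; how the deposited values were normalized is not stated. Deposited ratios correlated with those computed here at 0.983 to 0.988.

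The labels allow either dye for both channels. The tumour channel was read from 21 spots of luminal and milk genes. Csn2 and Afp, single genes, pointed opposite ways on 24 of 24 arrays. The median log2 red over green of 20 spots of reference cell genes stayed near 0, from -0.132 to 0.148. On most arrays it leaned the same way as the luminal median, so that list did not help to set the channel. The arrays of a pair correlated at -0.962 to -0.891 before turning.

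Intensities were corrected by normexp (offset 50) and loess in limma 3.58.1 (R 4.3.3, data.table version 1.17.8), turned, and averaged per pool. Of 41174 probes, 702 with spots marked non-uniform or outlying, 312 well above background on fewer than 4 arrays, and 11811 dimmer than another probe of their gene were left out. This left 28349 genes.

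A limma model with 6 strain means (residual degrees of freedom 6, prior 1.76) gave an F test and 9 contrasts, 5 against NDL25 and 4 against NYPD, each with Benjamini-Hochberg adjustment and a threshold of 0.05. The median standard error over genes was 0.109. Pools of a strain hold different tumours. The number of pools, 2 per strain, limits the precision, since the 2 arrays of a pool hold the same RNA and were averaged. On simulated data with the NYPD minus NDL25 layout and 28349 genes, the fit was run and made calls at this size. The simulated pools were independent, with no session effect and no difference shared between pools. The simulation therefore does not bear on those features of the real data. Pattern likeness is Pearson's r. The named genes were all members, up to 4 genes of each partner list with the smallest F test p, genes past the threshold in a contrast (up to 6 per list), and the 3 genes most like each of the 3 widest-ranging members. Members and lists were chosen with earlier results of these data known. Alternatives were other normalizations, filters, probe rules, the deposited ratios, blocks for session or pool number, pools left out, and a fit of 2 strains alone.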

Additional observations from a re-analysis of the deposited data

How the results depend on the processing

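With the 2 strains of a contrast fitted alone, which leaves fewer pools to estimate the spread, limma called 0 members between NYPD and NDL25, YB and NYPD, or YE and NYPD, and 0 partner genes between NYPD and NDL25, YB and NDL25, YB and NYPD, or YE and NYPD. Between YD and NYPD 1 member, S100b, was called with the scanner's processed signals, with the deposited ratios (5 members had them in all pools) and with probes well above background on all 24 arrays. With the deposited ratios 1 member, S100b, was called between YB and NDL25, and 2 of 27 partner genes passed the F test. Partner genes called between NYPD and NDL25 numbered 0 with median centring, 2 with processed signals and 0 with deposited ratios, and between YB and NYPD 1 with median centring. Anxa1, the 1 partner gene called between NYPD and NDL25 in the main fit, was not among the 27 tested with deposited ratios. That 0 is therefore not a lost call. The cause of the other changes was not tested. Leaving out 1 pool at a time gave 0 to 1 members in the F test, 0 to 2 for NYPD minus NDL25, 0 to 1 for YB minus NDL25, 0 for YC, YD and YE minus NDL25, 0 to 1 for YB and YC minus NYPD, and 0 to 2 for YD and YE minus NYPD. For the partner genes it gave 1 to 8 in the F test, 0 to 2 for NYPD minus NDL25, 3 to 5 for YB minus NDL25, 1 to 3 for YB minus NYPD and 0 to 3 for YE minus NYPD. The other S100 genes gave 0 to 2 and the fused genes 0 to 3, above 0 without NYPD pool 1 alone, and the receptors 0. S100a14 passed in the 5 NYPD contrasts without NYPD pool 1, and S100a6 in YB minus NDL25 without YB pool 2. A lone pool left in a strain is assumed to vary like the others. Pool numbers were not used as pairs in the main fit. Differences between pools 1 and 2 correlated across genes at -0.17 to 0.71 over 15 pairs of strains, 7 of them over 0.1. Some strains therefore shared part of the difference between their pools. With pool number as a replicate block the members called were 1 in the F test, 1 for NYPD minus NDL25, 1 for YB minus NYPD, 1 for YE minus NYPD and 0 otherwise, as without it, and 482 genes in all passed for NYPD minus NDL25, against 286. No called result reversed its direction in a setting that was run. Session as a block was not run for NYPD contrasts or the F test, and the F test was not run on 2 strains.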
